A study of Mus musculus with 12 samples.

Results

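The genes of the Wnt pathway followed here in sorted mouse skin fibroblasts were the ligands Wnt2, Wnt4, Wnt5a, Wnt10a and Wnt11, and the pathway target genes and regulators Axin2, Lef1, Nkd1, Nkd2 and Sp5. They are 10 of the 18193 genes measured, and 22 of the 34945 probe sets that the platform annotation gives exactly 1 gene symbol. Every probe set with only the symbol of 1 of the 10 genes was used, and the main value of a gene is that of the probe set whose mean across the 12 arrays was highest.

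RNA was measured on 12 Affymetrix mouse arrays, 4 for each of 3 groups, 1 array per sample. All samples were GFP-positive cells sorted from dissociated back skin of 7-week-old male mice, and all mice, the wild-type ones included, carried a PDGFRα-H2B-eGFP allele that marks the nuclei of fibroblasts. The group called Pap here came from tumour-associated (papilloma) skin of InvEE mice, the group InvEE from inflamed skin of InvEE mice without that label, and the group WT from normal skin of wild-type mice. InvEE mice express activated MEK1, a kinase of the MAPK cascade, under control of the involucrin promoter, whose activity lies in differentiating epidermal cells and not in the dermis. Whether the 4 samples of a group were taken from different animals is not stated in the labels. The p-values therefore reflect the spread among these samples, which could be technical, and precision is limited by the number of arrays.

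Wnt ligands are secreted lipid-modified proteins that bind Frizzled receptors on nearby cells. In the β-catenin branch, ligand binding stops a complex built on Axin from marking β-catenin for destruction, and β-catenin then enters the nucleus and works with factors of the TCF/LEF family. In skin, Wnt signals from the epidermis and the dermis direct hair follicle formation and growth, and several feedback genes, Axin2, Nkd1 and Sp5 among them, are widely used as readouts of the β-catenin branch.

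The sort and the arrays set limits that touch the results. Marker sums here are the log2 of the added linear signals, so the brightest genes weigh most. For 8 fibroblast markers (Pdgfra and collagen genes among them) the sum lay between 16.59 and 16.67 in Pap, 16.32 and 16.60 in InvEE, and 16.62 and 16.66 in WT. Pdgfra itself ranged from 10.43 to 11.26 in Pap, 10.35 to 10.88 in InvEE and 9.26 to 10.34 in WT. None of the 8 was dim. Dim is used for a mean below 6.16, under which 40% of the probe-set means fell. Sums of 13 keratinocyte markers spanned 10.84 to 12.44 in Pap, 11.75 to 12.98 in InvEE and 10.63 to 11.07 in WT, where 5 of the 13 were dim, against 2 in Pap and 1 in InvEE. Sums of 10 leukocyte markers spanned 11.05 to 11.53 in Pap, 11.01 to 11.94 in InvEE and 12.47 to 12.77 in WT. Sums of 7 mural markers, of the cells around blood vessels, spanned 9.999 to 10.59 in Pap, 10.79 to 11.25 in InvEE and 11.75 to 11.99 in WT, with no overlap between the groups. The mural marker Kcnj8 had means of 7.07 in Pap, 9.22 in InvEE and 11.08 in WT. Mcam, with means of 6.96, 7.18 and 6.33 in that order, was lowest in WT. Of the 7, 2 had a positive log2 difference in Pap against WT and 3 in InvEE against WT, with medians of -0.51 and -0.05. Sums of 16 dermal papilla and dermal sheath markers, hair follicle cells that also express Pdgfra, spanned 14.45 to 14.87 in Pap, 14.53 to 15.68 in InvEE and 13.37 to 14.33 in WT. Crabp1 and Vcan were the brightest of the 16 in each group, with means of 13.72 and 12.53 in Pap and 12.06 and 11.44 in WT. The median log2 difference of the 16 in Pap against WT was -0.44, opposite in sign to the difference of the sums. Pap 4 and WT 4 stood apart with the narrowest deposited values (interquartile ranges of 2.37 and 2.55, against 2.72 to 2.93 in the other arrays). The mean level of the poly-A spike controls, RNA added to the samples, was 9.78 to 12.50 in Pap, 7.76 to 8.60 in InvEE and 9.24 to 12.24 in WT, so every InvEE array was below every other array. The Gapdh 3' minus 5' signal, a sign of RNA integrity and amplification on the log2 scale, was 2.29 to 3.77 in Pap, 1.62 to 3.37 in InvEE and 1.59 to 2.28 in WT, so every Pap array was above every WT array. Its part in the Pap against WT results was not tested.

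Against normal skin, fibroblasts of papilloma-associated skin held more RNA of the ligands Wnt4, Wnt5a and Wnt10a and less of the target gene Sp5. Wnt4 was 2.36-fold, Wnt5a 3.44-fold and Wnt10a 3.75-fold higher in Pap than in WT, and Sp5 was 3.36-fold lower. The other 6 genes did not pass the test on their main probe sets. With the mean of all probe sets of a gene, Axin2, Lef1 and Nkd2 were called as well, each lower in Pap. The 4 of 10 genes called on the main probe sets (3 higher, 1 lower) stand beside 9.65% of all genes called in Pap against WT, 4.85% higher and 4.8% lower. Genes were called in limma where the two-sided p, adjusted by Benjamini-Hochberg across all genes, was under 0.05. The 10 genes were chosen with earlier results of these data known. Shares of all genes set beside their counts, here and below, are therefore a description and not a test. In such a bulk measurement, fewer cells of a type and less RNA per cell cannot be told apart. The fibroblast marker Pdgfra (1 of 8) was higher in Pap than in WT, by a log2 difference of 0.93. Of the other cell types that could be in the sort, 2 of 13 keratinocyte markers were higher in Pap. These were Krt14, by a log2 difference of 2.38, and Dsp, by 3.11. Of 16 dermal papilla and sheath markers 2 were higher, Crabp1 and Itga8, and 4 lower, Bmp4, Fgf7, Sox18 and Sox2. Of 7 mural markers 2 were lower in Pap, Kcnj8 by a log2 difference of -4.01 and Abcc9 of -2.12, and of 10 leukocyte markers 2 were lower, Csf1r and H2-Ab1. The part of these cells in the 4 calls was not tested.

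**Figure D1:**
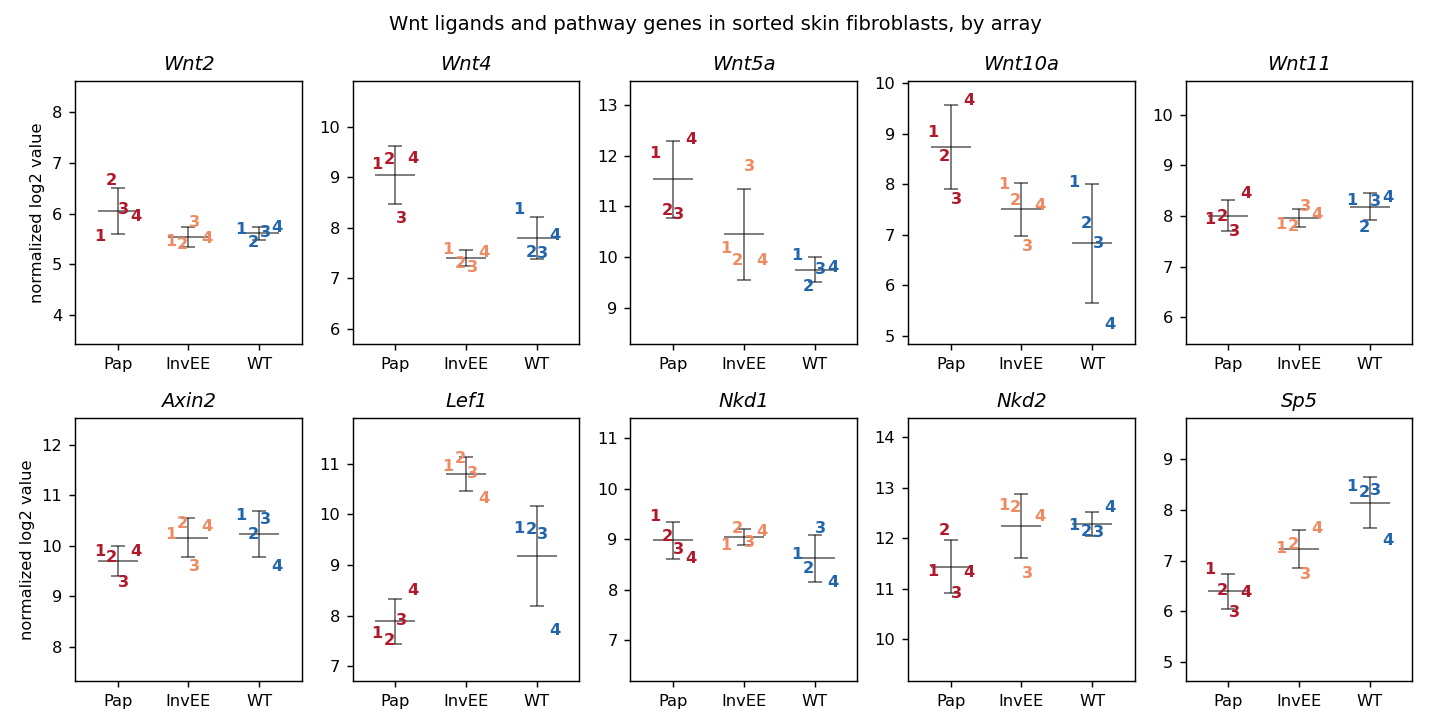
Normalized log2 value of each of the 10 genes (y axis, the same span in every panel) in Pap, InvEE and WT samples (x axis). Each digit is 1 array with its replicate number, and the bar with whiskers is the group mean ± SD of 4 arrays. Sp5 separates Pap from WT, Lef1 separates Pap from InvEE, and WT 4 lies at 7.71 for Lef1 and 7.39 for Sp5, below the other WT arrays.

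Wnt4, on chromosome 4, encodes a ligand that can act with or without β-catenin. Its values were 9.24, 9.35, 8.18 and 9.38 in Pap, 7.57, 7.30, 7.22 and 7.50 in InvEE, and 8.36, 7.50, 7.49 and 7.85 in WT. The Pap arrays lay above all InvEE arrays, while Pap 3 fell below WT 1, so Pap and WT overlapped. The log2 difference of Pap against WT was 1.24 ± 0.28 (SE, n = 4 each, adjusted p = 0.0145). A second probe set separated Pap from both other groups. It gave 9.74, 9.03, 8.49 and 8.52 in Pap, 6.01, 6.15, 6.54 and 6.40 in InvEE, and 6.36, 6.44, 6.37 and 6.72 in WT. On that probe set the log2 difference of Pap against WT was 2.47 ± 0.26 (SE, adjusted p = 1.50e-04 over all probe sets). The Wnt4 call held with each array left out, but the adjusted p was 0.0522 with both Pap 4 and WT 4 left out and 0.0547 with only the 8 Pap and WT arrays in the fit.

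Wnt5a, on chromosome 14, encodes a ligand best known for signalling without β-catenin. Its values were 12.04, 10.92, 10.84 and 12.33 in Pap, 10.17, 9.92, 11.79 and 9.93 in InvEE, and 10.02, 9.42, 9.75 and 9.79 in WT. Pap and WT did not overlap, and InvEE 3 lay among the Pap arrays. The log2 difference of Pap against WT was 1.78 ± 0.44 (SE, n = 4 each, adjusted p = 0.0235). Another probe set, with log2 difference 1.75 ± 0.48, and a further one, with 1.34 ± 0.28, were also called (adjusted p = 0.0469 and 0.0133 over all probe sets). The last had a mean of 5.73 over the 12 arrays, was dim, and was not called (log2 difference -0.24). The call of Wnt5a was lost without Pap 1 (1.61, adjusted p = 0.0655), Pap 4 (1.52, 0.0547), WT 2 (1.68, 0.0658) or WT 3 (1.79, 0.0505), and without both Pap 4 and WT 4 (1.53, 0.0810).

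Wnt10a, on chromosome 1, encodes a ligand of the β-catenin branch needed in hair follicles and teeth. Its values were 9.03, 8.55, 7.71 and 9.66 in Pap, 8.003, 7.69, 6.77 and 7.58 in InvEE, and 8.04, 7.23, 6.83 and 5.22 in WT. Pap and WT overlapped, since Pap 3 was below WT 1, and WT 4 was the lowest array of all. The log2 difference of Pap against WT was 1.91 ± 0.55 (SE, n = 4 each, adjusted p = 0.0487). This call was lost when any 1 of 9 arrays was left out. Without Pap 1, Pap 2 or Pap 4 the log2 differences were 1.81, 1.97 and 1.60, without InvEE 1, InvEE 2 or InvEE 4 the value stayed at 1.91 with adjusted p from 0.0641 to 0.0692, and without WT 2, WT 3 or WT 4 it was 2.04, 1.91 and 1.37. With both Pap 4 and WT 4 left out the log2 difference was 1.06 (adjusted p = 0.146), over 1.5 times smaller.

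Wnt2, on chromosome 6, and Wnt11, on chromosome 7, were not called in any comparison. Wnt2, a ligand of the β-catenin branch, was dim in every group, with means of 6.06 ± 0.45 in Pap, 5.54 ± 0.19 in InvEE and 5.61 ± 0.13 in WT (SD, n = 4 each). Wnt11, known mainly for signalling without β-catenin, averaged 8.01 ± 0.31 in Pap, 7.96 ± 0.18 in InvEE and 8.18 ± 0.27 in WT. The log2 difference of Wnt11 in Pap against WT was -0.18 with a 95% confidence interval of -0.59 to 0.24, and 0.03 when arrays were shifted to equal ribosomal protein genes.

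Sp5, on chromosome 2, encodes a zinc-finger transcription factor that is a direct target of β-catenin and TCF/LEF. Its values were 6.82, 6.42, 5.98 and 6.38 in Pap, 7.24, 7.31, 6.73 and 7.64 in InvEE, and 8.47, 8.34, 8.38 and 7.39 in WT. Every Pap array lay below every WT array, and the InvEE arrays fell between the means of the other groups with an overlap on each side. Sp5 fell by 1.75 ± 0.27 on the log2 scale in Pap against WT (SE, n = 4 each, adjusted p = 0.00183). The call held under all 24 alternative settings, with log2 differences between -2.00 and -1.54.

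**Figure D2:**
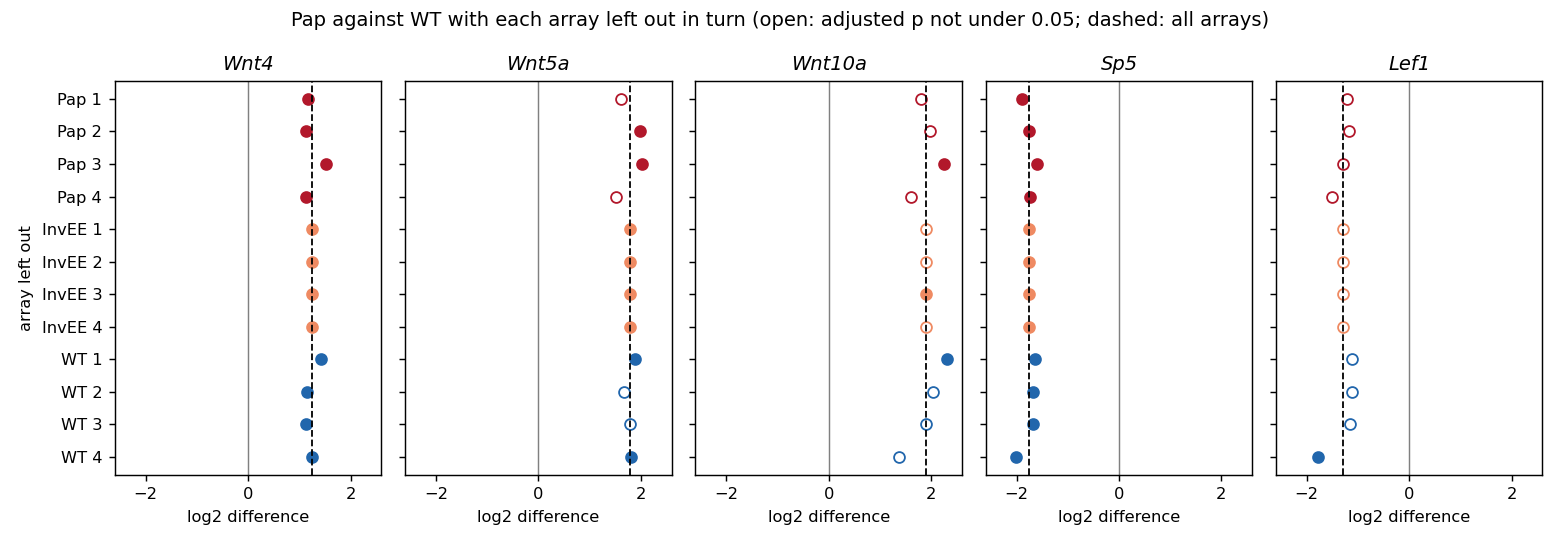
Log2 difference of Pap against WT (x axis) for Wnt4, Wnt5a, Wnt10a, Sp5 and Lef1 with the array named on the y axis left out, coloured by its group. Filled points have an adjusted p under 0.05, and the dashed line is the value with all 12 arrays. Wnt4 and Sp5 are filled in all 12 fits, Wnt5a in 8 and Wnt10a in 3, and Lef1 is filled without WT 4.

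Promoter sequence is shown for Sp5 and Lef1, the 2 target genes with the largest differences, because the TCF/LEF proteins recognise short CTTTG-containing motifs. The letters CTTTGA and CTTTGT were searched on both strands in the 250 bases before each annotated start (RefSeq, GRCm38.p6); 12 windows of 8 of the 10 genes were at hand. Capitals mark the matches, a reverse-strand match reading as TCAAAG or ACAAAG. Of the windows of the 4 annotated Lef1 starts, the one with the most matches is shown, which is also the most downstream.
Sp5, chr2:70474673-70474922, plus strand: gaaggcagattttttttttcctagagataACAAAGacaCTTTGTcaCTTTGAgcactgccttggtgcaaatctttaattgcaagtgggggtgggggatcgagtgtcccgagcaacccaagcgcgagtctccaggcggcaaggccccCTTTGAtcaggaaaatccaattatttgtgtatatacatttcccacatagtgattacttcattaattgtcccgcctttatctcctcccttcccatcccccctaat
Lef1, chr3:131156044-131156293, plus strand: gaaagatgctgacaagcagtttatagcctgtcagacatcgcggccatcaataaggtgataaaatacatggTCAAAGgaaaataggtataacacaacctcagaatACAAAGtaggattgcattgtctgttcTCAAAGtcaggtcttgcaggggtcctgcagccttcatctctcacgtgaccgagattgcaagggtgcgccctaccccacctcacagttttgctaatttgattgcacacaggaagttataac
The Sp5 window held 4 matches, 3 of them between 221 and 204 bases before the start and the other at 104. The Lef1 window held 3, and the 3 other Lef1 windows none. Of all 32851 windows of this length, 27.6% held at least 1 match and 0.776% held matches at 3 or more places. These shares are per window, whereas the Lef1 window was picked from 4 for its matches. One of the 2 Wnt11 windows held 1 match, and those of Wnt2, Wnt4, Axin2, Nkd1 and Nkd2 held none. A match of letters is a description and not a binding site.

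Lef1, on chromosome 3, encodes a nuclear partner of β-catenin that is itself a target of the pathway and marks follicle and upper dermal mesenchyme. Its values were 7.64, 7.51, 7.90 and 8.50 in Pap, 10.94, 11.11, 10.82 and 10.33 in InvEE, and 9.71, 9.71, 9.61 and 7.71 in WT. WT 4 lay inside the Pap range, and the other 3 WT arrays lay between Pap and InvEE. In Pap against WT the log2 difference of -1.29 ± 0.41 was not called (SE, adjusted p = 0.0724). It was -1.79 (adjusted p = 0.00135) without WT 4 and -1.99 (adjusted p = 2.77e-04) without both Pap 4 and WT 4. The second Lef1 probe set was called in Pap against WT, with a log2 difference of -2.06 ± 0.52 (adjusted p = 0.0324 over all probe sets). It gave 5.48, 4.63, 5.67 and 4.25 in Pap and 7.49, 7.91, 7.63 and 5.26 in WT, and the groups overlapped. All its Pap values and that of WT 4 lay below the dim limit of 6.16, so the size of its difference depends on the background correction.

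Axin2, on chromosome 11, encodes the scaffold of the β-catenin destruction complex and is a standard readout of the β-catenin branch. Its values were 9.88, 9.77, 9.27 and 9.89 in Pap, 10.23, 10.44, 9.59 and 10.38 in InvEE, and 10.59, 10.23, 10.53 and 9.60 in WT. The log2 difference of Pap against WT was -0.53 ± 0.26 and was not called (SE, n = 4 each, adjusted p = 0.249). The second Axin2 probe set gave 8.79, 8.42, 8.36 and 8.99 in Pap, 8.97, 9.07, 8.73 and 8.85 in InvEE, and 8.996, 9.82, 9.24 and 9.82 in WT. It was called in Pap against WT, where the groups did not overlap (log2 difference -0.83 ± 0.22, adjusted p = 0.0392 over all probe sets).

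Nkd1, on chromosome 8, and Nkd2, on chromosome 13, encode Naked cuticle proteins, which bind Dishevelled and dampen the signal. Nkd1 averaged 8.98 ± 0.37 in Pap, 9.05 ± 0.16 in InvEE and 8.62 ± 0.46 in WT (SD, n = 4 each), and none of its 4 probe sets was called in any comparison. Nkd2 had values of 11.35, 12.16, 10.91 and 11.33 in Pap, 12.66, 12.60, 11.31 and 12.42 in InvEE, and 12.26, 12.14, 12.11 and 12.61 in WT. On the main Nkd2 probe set the log2 difference of Pap against WT was -0.84 ± 0.32, not called (adjusted p = 0.131). The 3 other Nkd2 probe sets did not overlap between Pap and WT, with log2 differences of -1.28, -1.14 and -0.71 and adjusted p of 0.0443, 0.0654 and 0.0560 over all probe sets, so that 1 of them was called. The probe set at -0.71 had a mean of 5.43 over the 12 arrays and was dim.

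**Figure D3:**
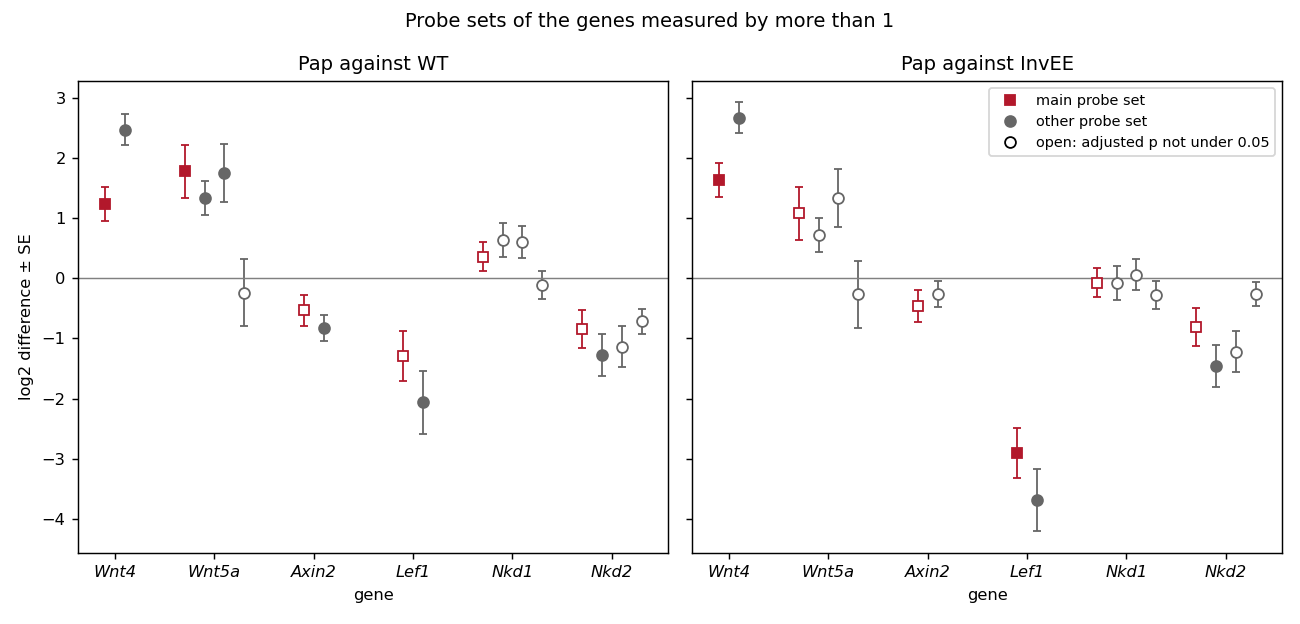
Log2 difference ± SE (y axis) of each probe set of the 6 genes measured by more than 1 (x axis), for Pap against WT on the left and Pap against InvEE on the right. Squares are the main probe sets, circles the others, and filled symbols have an adjusted p under 0.05 over all probe sets. All called Wnt4 and Wnt5a probe sets lie above 0 and all called Axin2, Lef1 and Nkd2 probe sets below it.

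On the means over all 4 WT arrays, 4 of the 5 ligands had a positive log2 difference in Pap against WT and 4 of the 5 other genes a negative one (5 of 5 ligands with arrays shifted to equal ribosomal protein genes). Wnt11 and Nkd1 were the exceptions. The median of the 10 was 0.09, beside 0.04 over all genes. Pap and WT did not overlap in 2 of the 10 genes, beside 13.8% of all genes. Wnt5a was the higher of these in Pap, beside 7.22% of all genes, and Sp5 the lower, beside 6.56%.

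Inflamed skin showed no called difference from normal skin in these genes. In InvEE against WT, 0 of the 10 genes were called by limma, beside 0.533% of all genes, and 2 of 10, Lef1 and Sp5, had an unadjusted p under 0.05, beside 15.6% of all genes. Lef1 was 1.61 ± 0.41 higher on the log2 scale in InvEE (SE, adjusted p = 0.106), with every InvEE array above every WT array, the only gene of the 10 whose groups did not overlap, beside 15.3% of all genes (5.07% higher in InvEE). The Sp5 log2 difference was -0.92 ± 0.27 (SE, adjusted p = 0.152).

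Both were called where Pap 4 and WT 4 were left out, Lef1 with a log2 difference of 1.12 (adjusted p = 0.0307) and Sp5 with -1.17 (adjusted p = 0.0493). The log2 differences of the other 8 genes lay between -0.40, for Wnt4, and 0.70 ± 0.44, for Wnt5a (adjusted p = 0.448). The 95% confidence interval of the Axin2 difference ran from -0.64 to 0.49. The 16 dermal papilla and sheath markers had a median log2 difference of 1.54 in InvEE against WT, all 16 positive and 0 called. Of 13 keratinocyte markers 12 were positive, with a median of 1.40, and 2, Krt15 and Perp, were called higher, beside 0.258% of all genes. Among 7 mural markers 1, Kcnj8, was called lower, beside 0.275% of all genes, and 3 of the 7 had a positive log2 difference. The part of these cell types in the Lef1 difference was not tested.

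Between the groups from InvEE mice, Wnt4 was higher and Lef1 lower in papilloma-associated than in inflamed skin. These are 2 of the 10 genes, beside 6.71% of all genes called in Pap against InvEE, 3.67% higher and 3.04% lower. Both comparisons of Pap share the Pap arrays, and both comparisons with WT share the WT arrays, so their values are not independent. Lef1 was 7.51-fold lower in Pap, a log2 difference of -2.91 ± 0.41 (SE, n = 4 each, adjusted p = 0.00154). Its second probe set, with all Pap values below the dim limit, gave -3.69 ± 0.52 (adjusted p = 0.00204 over all probe sets). Wnt4 was 3.11-fold higher in Pap, a log2 difference of 1.64 ± 0.28 (SE, n = 4 each, adjusted p = 0.00457). Pap and InvEE did not overlap in either gene, and in no other of the 10, beside 21.1% of all genes, 14.5% higher and 6.66% lower in Pap.

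When spike level was added as a covariate, the log2 differences were -2.27 for Lef1 (adjusted p = 0.139) and 1.02 for Wnt4 (adjusted p = 0.265), and neither was called. With all InvEE arrays at the low end of the spike level, spike level and group cannot be told apart there. Of the 16 dermal papilla and sheath markers, 9 were lower and 0 higher in Pap than in InvEE, with a median log2 difference of -2.11, and 1 of 13 keratinocyte markers was lower. Over all genes 3.04% were called lower and 3.67% higher in Pap against InvEE. The mural markers Kcnj8, Cspg4 and Notch3 (3 of 7) and the adipocyte marker Fabp4 (1 of 4) were also lower, and the fibroblast markers Dpt and Pdgfrb (2 of 8) were higher. The part of these cells in the Lef1 and Wnt4 differences was not tested. The remaining genes of the 10 were not called on their main probe sets. Sp5 had a log2 difference of -0.83 ± 0.27 (adjusted p = 0.0907), Nkd2 of -0.81 ± 0.32 (adjusted p = 0.136), Wnt10a of 1.23 ± 0.55 (adjusted p = 0.180) and Axin2 of -0.46 (adjusted p = 0.267). Another Nkd2 probe set was called, with no overlap and a log2 difference of -1.46 ± 0.35 (adjusted p = 0.0318 over all probe sets). Nkd2 was also called with the mean of its probe sets (-0.94, adjusted p = 0.0277), with array weights (-0.94, adjusted p = 0.0442) and without InvEE 3 (-1.12, adjusted p = 0.0287).

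The Wnt5a comparison of Pap with InvEE depended on InvEE 3 and on scaling. InvEE 3 had 11.79, against 9.92 to 10.17 in the other InvEE arrays, and the other 2 bright Wnt5a probe sets were highest there too among InvEE arrays, at 11.30 and 11.04. The log2 difference of Pap against InvEE was 1.08 ± 0.44 (SE, adjusted p = 0.145), and it was called without InvEE 3 (1.53, adjusted p = 0.0258) and with arrays shifted to equal ribosomal protein genes (1.47, adjusted p = 0.0468). The same array had the highest summed dermal papilla and sheath markers of all 12, 15.68, and a Gapdh 3' minus 5' signal of 3.37, against 1.62 to 1.97 in the other InvEE arrays. The part of either in the Wnt5a value was not tested.

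**Figure D4:**
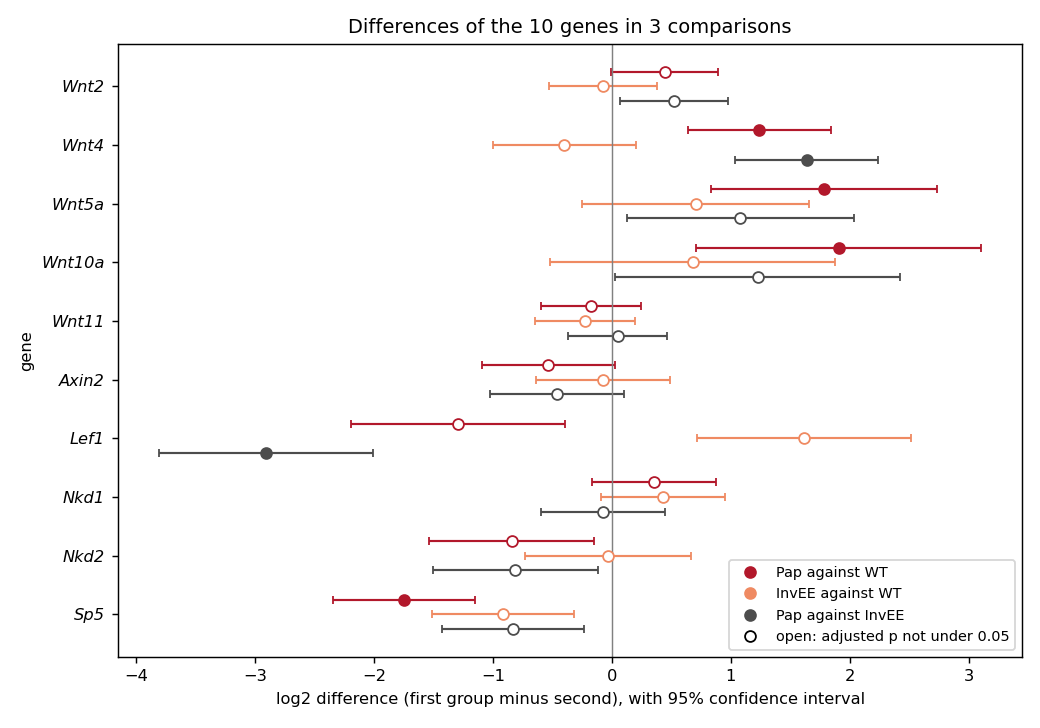
Log2 differences (x axis) of the 10 genes (y axis) in the 3 comparisons, first group minus second, with 95% confidence intervals from the model over 12 arrays. Filled points have an adjusted p under 0.05. The filled points are Wnt4, Wnt5a, Wnt10a and Sp5 in Pap against WT, and Wnt4 and Lef1 in Pap against InvEE.

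The order of the group means differed between genes. Sp5 was lowest in Pap (6.40 ± 0.34), then InvEE (7.23 ± 0.37), then WT (8.15 ± 0.51), and the neighbours in this order were not called apart. Lef1 ran from Pap (7.89 ± 0.44) over WT (9.18 ± 0.98) to InvEE (10.80 ± 0.34), and here too the neighbours were not called apart. Wnt5a and Wnt10a were highest in Pap, with InvEE in the middle, and InvEE did not differ from either neighbour by the test. Wnt4 was higher in Pap than in each of the other groups, which were not called apart.

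Genes with the most similar pattern were read off by Pearson's r across the 12 arrays, which share the 3 groups, as a description. For Wnt5a they were Atxn10 (0.97) and Emilin1 (0.954), for Wnt4 2410021H03Rik (0.961) and Il17rc (0.956), and for Wnt10a Gm13483 (0.955) and Slc5a12 (0.932). For Lef1 they were Id1 (0.97) and Rps4x (0.948), and for Sp5 Stxbp5 (0.95) and Nt5e (0.947).

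The rest of the pathway was counted in 5 lists. Of the 14 other Wnt ligands, all measured, 0 were called by limma in any comparison. The shares of all genes called were 9.65%, 0.533% and 6.71% in Pap against WT, InvEE against WT and Pap against InvEE. In that order 0, 1 and 2 of these ligands had an unadjusted p under 0.05, beside 22.4%, 15.6% and 26.5% of all genes. The list medians were 0.12, -0.09 and 0.26 in that order, beside 0.04, -0.09 and 0.12 over all genes. When 1 array was left out, 0 or 1 of them was called in Pap against InvEE. Of all 19 ligands measured, Wnt4, Wnt5a and Wnt10a were those called in at least 1 comparison.

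Of 25 genes for ligand secretion, receptors and agonists, 2 were higher and 1 lower in Pap against WT, beside 4.85% and 4.8% of all genes. With 1 array left out, 1 to 3 were higher and 1 to 2 lower. The list median was 0.25, beside 0.04 over all genes. With the ribosomal shift, and likewise with the spike covariate, 5 were higher and 1 lower. Ptk7, a co-receptor of planar polarity signalling, had 11.03, 10.80, 10.92 and 11.32 in Pap, against 8.69, 8.86, 8.93 and 6.12 in WT. It was higher by 2.87 ± 0.50 on the log2 scale (SE, adjusted p = 0.00364). Rspo1, a secreted agonist that acts through Lgr receptors, had 8.63, 9.83, 9.64 and 9.47 in Pap, against 10.73, 11.02, 10.71 and 10.69 in WT, and fell by 1.40 ± 0.28 on the log2 scale (SE, adjusted p = 0.00771). Rspo4, another R-spondin, had a log2 difference of 2.11 ± 0.55 (SE, adjusted p = 0.0298), a call lost without any 1 of the 4 Pap arrays or WT 2, WT 3 or WT 4 (1.82 to 2.53 with 1 array left out).

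In Pap against InvEE, 1 gene of this list was higher and 4 were lower, beside 3.67% and 3.04% of all genes. With 1 array left out, 0 to 3 were higher and 3 to 5 lower. With the ribosomal shift 6 were higher and 3 lower, and with the spike covariate 0 were called. Lgr6, a receptor for R-spondins, had 5.59, 5.59, 6.73 and 5.93 in Pap, against 10.44, 9.62, 7.80 and 9.52 in InvEE, a log2 difference of -3.38 ± 0.61 (SE, adjusted p = 0.00636). Rspo3, which is also 1 of the dermal papilla markers, had a log2 difference of -3.26 ± 0.64 (SE, adjusted p = 0.0109), and Lgr4 of -1.55 ± 0.31 (SE, adjusted p = 0.0117). The Pap means of Lgr6 (5.96) and Rspo3 (5.83) were dim, so the sizes of their differences depend on the background correction. Rspo1 (-1.30, lost without InvEE 1) and Ptk7 (1.99, lost without any 1 of the Pap or InvEE arrays) were the other calls. Lgr6, Rspo3 and Lgr4 were not called with the spike level as a covariate, at adjusted p of 0.326, 0.426 and 0.242.

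Of 17 secreted or surface inhibitors measured, 3 were higher and 1 lower in Pap against WT, beside 4.85% and 4.8% of all genes. With 1 array left out, 3 to 4 were higher and 0 to 3 lower. The list median was 0.14, beside 0.04 over all genes. Sfrp2, a secreted Frizzled-related protein that binds Wnts, had 13.22, 13.15, 12.86 and 12.91 in Pap, against 9.995, 9.73, 8.85 and 7.20 in WT, a log2 difference of 4.09 ± 0.58 (SE, adjusted p = 9.73e-04). Dkk3, a divergent Dickkopf family member whose action on Wnt signalling is less clear, was 1.80 ± 0.29 higher on the log2 scale (SE, adjusted p = 0.00239), and Kremen1, a Dickkopf receptor, 0.82 ± 0.18 higher (SE, adjusted p = 0.0145).

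In Pap against InvEE, 2 inhibitors were higher and 5 lower, beside 3.67% and 3.04% of all genes. With 1 array left out, 1 to 3 were higher and 4 to 6 lower. With the ribosomal shift 5 were higher and 4 lower, and with the spike covariate 0 were higher and 1, Notum, lower. Notum, an enzyme that removes the lipid from Wnts and is itself a target of the pathway, had 6.46, 5.98, 6.40 and 6.86 in Pap, against 8.83, 8.25, 8.66 and 7.99 in InvEE. Its log2 difference of -2.01 ± 0.26 (SE, adjusted p = 8.01e-04) was called also in the fit with a spike covariate. The secreted inhibitors Wif1 and Sostdc1 had log2 differences of -5.30 ± 1.14 and -3.75 ± 0.72 (SE, adjusted p = 0.0170 and 0.0101), called with each array left out and not called with the spike level as a covariate (-1.19 and -2.67). In Pap, Wif1 ranged from 4.07 to 7.74, below the dim limit on 2 of the 4 arrays. Frzb, a secreted Frizzled-related protein, had a log2 difference of -2.06 (lost without Pap 1, Pap 2 or InvEE 4), and Dkk1, a Dickkopf inhibitor of the β-catenin branch, of -0.94 with both group means dim (lost with the ribosomal shift). The higher ones were Dkk3 (2.34) and Sfrp2 (2.35, lost without Pap 1, Pap 2, Pap 4, InvEE 1, InvEE 2 or InvEE 4). Notum was lower in Pap than in WT as well (-0.98, lost without Pap 1, Pap 2, Pap 3, WT 1 or WT 2).

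**Figure D5:**
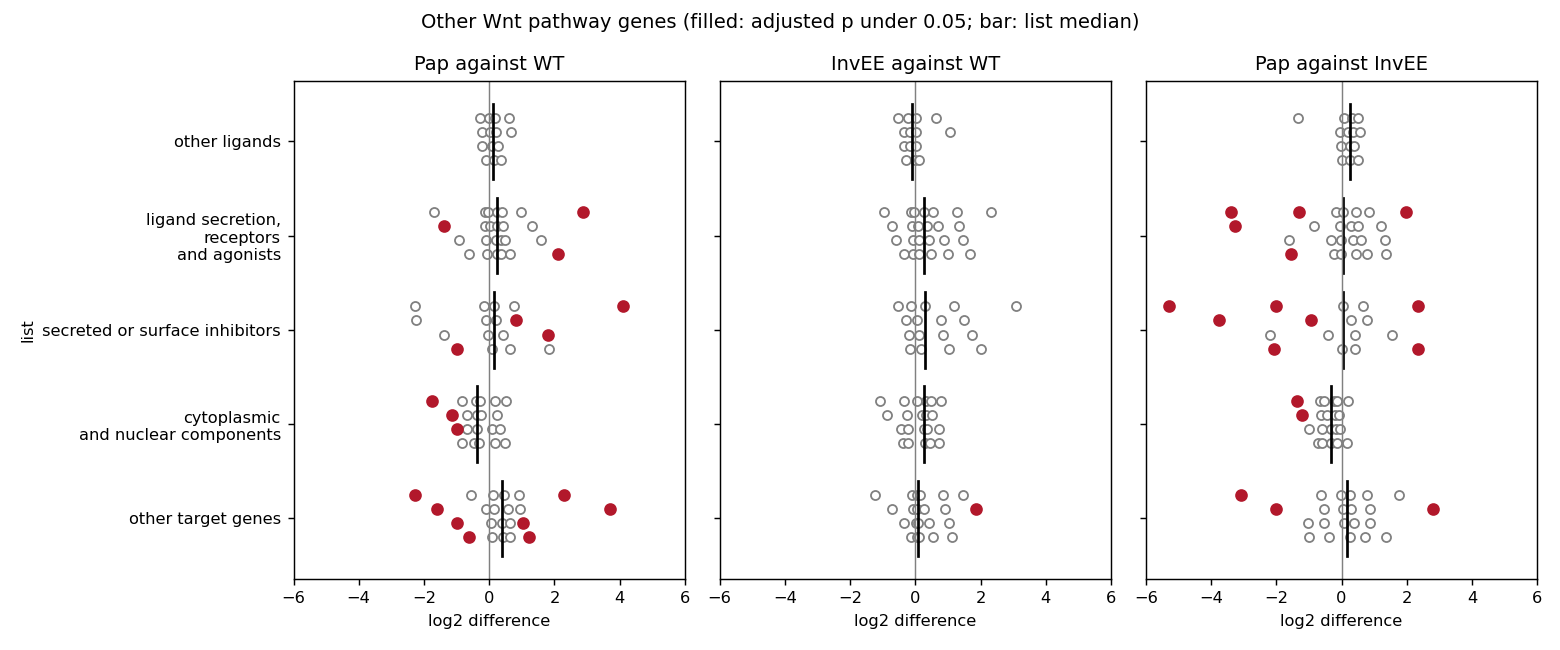
Log2 differences (x axis) of the other measured Wnt pathway genes in 5 lists (y axis), 1 panel per comparison, each circle 1 gene. Filled circles have an adjusted p under 0.05 and the black bar is the list median. Ligands other than the 5 described here have no filled circle, while inhibitors have filled circles on both sides of 0 in Pap against WT and Pap against InvEE.

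Of 21 cytoplasmic and nuclear components measured, 0 were higher and 3 lower in Pap against WT, beside 4.85% and 4.8% of all genes. With 1 array left out, 0 were higher and 2 to 4 lower. The list median was -0.36, beside 0.04 over all genes. Tle1, a co-repressor that TCF factors recruit, had 8.01, 7.00, 6.90 and 8.33 in Pap, against 8.99, 8.97, 9.06 and 10.20 in WT, and fell by 1.75 ± 0.35 on the log2 scale (SE, adjusted p = 0.00840). Tcf7l1, a TCF factor that mainly represses, fell by 0.99 ± 0.20 (SE, adjusted p = 0.00857), a call that was lost when arrays were shifted to equal ribosomal protein genes (-0.79, adjusted p = 0.1001). Tcf7l2, another TCF factor, was called at -1.15 (adjusted p = 0.0455), which held in 3 of 12 fits with 1 array left out, those without Pap 2, Pap 3 or InvEE 3. In Pap against InvEE 2 of the 21 had a positive log2 difference. Of the 21, 2 were called, both lower, beside 3.04% of all genes called lower. These were Tle2 (-1.35, lost without Pap 2, InvEE 1, InvEE 2 or InvEE 3) and Tcf7l2 (-1.20). However, 0 to 2 were called with 1 array left out and 0 with the ribosomal shift.

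Of 22 other target genes measured, 4 were higher and 4 lower in Pap against WT, beside 4.85% and 4.8% of all genes. With 1 array left out, 2 to 4 were higher and 1 to 4 lower. The list median was 0.40, beside 0.04 over all genes. Ccn4, also called Wisp1, a secreted matricellular protein, had 11.76, 11.59, 11.50 and 11.19 in Pap, 8.12, 8.75, 9.19 and 8.78 in InvEE, and 8.15, 7.34, 8.73 and 6.95 in WT. All Pap arrays were above all others, with log2 differences of 3.72 ± 0.35 against WT (SE, adjusted p = 5.07e-05) and 2.80 ± 0.35 against InvEE (SE, adjusted p = 6.38e-04). Cd44, a hyaluronan receptor, was 2.30 ± 0.49 higher in Pap than in WT (SE, adjusted p = 0.0113), and Nrcam, a cell adhesion molecule, fell by 2.26 ± 0.48 (SE, adjusted p = 0.0107). The other calls were less stable with 1 array left out. Jag1 (1.21) lost its call without Pap 2, Pap 3, Pap 4, WT 1 or WT 4, and Bambi (-1.61) without Pap 1, Pap 2, WT 1 or WT 2. Twist1 and Twist2 encode mesenchymal transcription factors. Twist2 (1.03) lost its call without Pap 2, Pap 4, WT 2, WT 3 or WT 4, and Twist1 (-0.61) kept its call only without Pap 2 or InvEE 3.

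Bambi, a decoy receptor for TGF-beta family ligands and a target of the pathway, had 5.83, 5.76, 7.06 and 6.73 in Pap, against 9.14, 9.19, 10.41 and 8.91 in InvEE. Its log2 difference was -3.07 ± 0.39 (SE, adjusted p = 7.79e-04, and 0.0748 with the spike level as a covariate). Pap 1 and Pap 2 lay below the dim limit of 6.16. In InvEE against WT, 1 gene of the 5 lists was called, beside 0.533% of all genes. This was Jag1, a Notch ligand, with 10.33, 10.53, 11.06 and 10.03 in InvEE, against 8.31, 9.46, 8.87 and 7.92 in WT. Its log2 difference was 1.85 ± 0.31 (SE, adjusted p = 0.0299), and the call held in 8 of 12 fits with 1 array left out, being lost without InvEE 1, InvEE 2, InvEE 3 or WT 1. It was also lost with the spike covariate (1.44, adjusted p = 0.280) and with only the 8 InvEE and WT arrays in the fit (adjusted p = 0.0544).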

How the data were processed

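The deposited values were log2 values, 1 per probe set and array, between 2.08 and 14.96 for 45101 probe sets, 64 of them controls; per the submitters' processing notes limma was used by the authors. For the step that turned scans into these values, with its background correction and normalization, the method is not given in the sources used here.

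Lower quartiles of the arrays differed by 0.284, so the values were quantile normalized. Array pairs of a group correlated at 0.893 to 0.989 and shared at most 0.253% of identical values, so no array was a copy of another. Each array was entered as 1 replicate, but these values cannot show whether the samples came from different animals. Genes were named from the platform annotation. All 12 arrays entered 1 limma 3.58.1 model (R 4.3.3) of 3 group means, and p-values were adjusted over 18193 genes (Benjamini-Hochberg, two-sided, called under 0.05); probe sets were adjusted over all probe sets. The fit was tested on simulated data. The labels do not say whether equal replicate numbers mark paired samples, so the main fit had no block. Deviations from the group means correlated at -0.094 to 0.177 in the 12 same-number pairs, 2 of them over 0.1. The highest value of all pairs was that of Pap 4 with WT 4 (0.177). These correlations cannot settle whether samples were paired or shared a batch.

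Named genes are the 10 genes, and of 5 pathway lists the called ones, largest first, at most 8 a list. List members with no probe set of their own symbol were not analysed here. The genes, lists and markers were chosen with earlier results of these data known. Alternatives, 24 in all, were recomputed throughout, 1 of them (both Pap 4 and WT 4 left out) added after the data were seen.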

Additional observations from a re-analysis of the deposited data

Results flagged for a closer look

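Of 30 sets of 4 arrays (10 genes in 3 groups), 5 held an array far from the other 3, where chance gives about 1 in 20. Wnt4 was 8.178 in Pap 3, against 9.244 to 9.376 in the other Pap arrays. Wnt5a was 11.785 in InvEE 3, against 9.923 to 10.165 in the other InvEE arrays. Wnt11 was 7.778 in WT 2, against 8.284 to 8.362 in the other WT arrays. Lef1 was 7.708 in WT 4, against 9.605 to 9.713, and Sp5 was 7.393 in the same array, against 8.343 to 8.472 in the other WT arrays. WT 4 was also the lowest WT array for Wnt10a, at 5.222, and had a weight of 0.284 when arrays were weighted by their distance from their group. Pap 4 had the lowest weight of all arrays, 0.178. It also held the highest value of all arrays for Wnt4 (9.376), Wnt5a (12.329) and Wnt10a (9.656).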

How the results depend on the processing

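Sp5 in Pap against WT was called under all 24 alternatives, Wnt4 under 22, Wnt5a under 19 and Wnt10a under 9; in Pap against InvEE, Lef1 and Wnt4 were each called under 23. Of the 10 genes, 4 were called in Pap against WT. With the mean of all probe sets of a gene 7 were called, Axin2, Lef1 and Nkd2 being added, each lower. The count was 2 with only the 8 arrays compared, 2 with both Pap 4 and WT 4 left out, and 2 to 4 with 1 array left out. In InvEE against WT, 0 were called, but 2 (Lef1 and Sp5) with array weights and 2 with both Pap 4 and WT 4 left out, and 0 with any 1 array left out. In Pap against InvEE, 2 were called, but 5 with arrays shifted to equal ribosomal protein genes, 6 with array weights, 0 with the spike level as a covariate, and 2 to 4 with 1 array left out. Over all genes, Pap against WT gave 1756 calls, 3444 with every probe set as its own feature, 1094 with only the 8 arrays and 1259 to 1792 with 1 array left out. InvEE against WT gave 97 calls, 62 without quantile normalization, 228 with the mean of probe sets, 839 with array weights, 219 with both Pap 4 and WT 4 left out, 0 with the spike level as a covariate, and 0 to 249 with 1 array left out (0 without InvEE 1, InvEE 2 or WT 1). Pap against InvEE gave 1221 calls, 3287 with the ribosomal shift (2977 of them higher), 2518 with every probe set, 2813 with array weights, 259 with the spike level and 578 to 1581 with 1 array left out. With the ribosomal shift the calls were 1132 higher and 497 lower in Pap against WT and 29 higher and 75 lower in InvEE against WT, and the medians of all genes became 0.25, -0.28 and 0.51 in Pap against WT, InvEE against WT and Pap against InvEE, from 0.04, -0.09 and 0.12. The replicate block gave 3, 0 and 2 of the 10 genes and 1551, 57 and 1039 genes in the same order of comparisons; 6 of 12 arrays correlated best with their own number. It ended the call of Wnt10a (adjusted p = 0.0563). The causes of these changes were not tested.

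Differences that changed sign were all uncalled in the fit reported. Wnt11 in Pap against WT became 0.031 with the ribosomal shift. In InvEE against WT with the spike level, Wnt4 became 0.12, Wnt11 0.095, Nkd1 -0.11 and Nkd2 0.28; Nkd2 became 0.27 with array weights and 0.079 with both Pap 4 and WT 4 left out, and ranged from -0.17 to 0.28 with 1 array left out (0.08 without WT 4), as Axin2 did from -0.29 to 0.12 (0.045 without WT 1, 0.023 without WT 3). In Pap against InvEE, Wnt11 became -0.045 without quantile normalization, -0.0050 with array weights, -0.33 with the spike level and -0.093 with both arrays left out, and ranged from -0.093 to 0.15 with 1 array left out (-0.0046 without InvEE 2). Nkd1 there became 0.32 with the ribosomal shift, 0.56 with the spike level and 0.050 with both arrays left out, and ranged from -0.23 to 0.050 with 1 array left out. Wnt2 gave no value with the lowest 40% of genes left out.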
